A study of Homo sapiens with 24 samples.

Results

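The histone genes of the chromosome 6 cluster were taken as the protein-coding genes on chromosome 6 whose lowest listed start lies between 26000000 and 28000000 and whose symbol begins with HIST1, H1-, H2A, H2B, H3C or H4C. Of 37416 genes in the count tables, 53 met this rule: 6 linker histone H1 genes, 11 H2A genes, 14 H2B genes, 10 H3 genes and 12 H4 genes. The rule uses position and name and no measured value. The libraries came from 4 established cell lines of human triple-negative breast cancer: MDAMB231, MDAMB468, BT549 and HCC1806. In each line a lentiviral hairpin against ADAR1 (shADAR1), the enzyme that converts adenosine to inosine in double-stranded RNA, was compared with a control hairpin (shNT). Every group, controls included, was infected for 24 h and then kept for 72 h in 2 µg/ml puromycin, and every group held 3 biological replicates, 24 libraries in 8 groups. The libraries were made from 1 µg of total RNA after ribosomal RNA was removed, with no selection for poly(A) tails.

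Replication-dependent histone genes supply the core histones H2A, H2B, H3 and H4, which form the nucleosome, and the linker histone H1, which binds the DNA between nucleosomes. Most of them have no intron, are transcribed in S phase at the histone locus body organised by NPAT, and give an mRNA that ends after a conserved stem-loop in place of a poly(A) tail. The stem-loop is bound by SLBP, which acts in the processing, translation and decay of these mRNAs. Libraries selected for poly(A) tails lose most of this RNA, whereas total RNA libraries keep it.

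The stem-loop is shown because it is the feature that keeps these mRNAs out of poly(A)-selected libraries. It was found in the annotated transcripts of 20 of the 53 genes, and many of the other transcripts in the annotation hold only coding sequence. The sites below are 26 bases long, read from GENCODE 29 transcripts (GRCh38) 5′ to 3′ in DNA letters, with the 16 bases of the stem-loop in capitals. They lie at chr6:26217412-26217437 (H2AC8, plus strand), chr6:26204996-26205021 (H4C5, plus), chr6:26252050-26252075 (H2BC9, plus), chr6:26225591-26225616 (H3C6, plus), chr6:26285126-26285151 (H4C8, minus) and chr6:27810511-27810536 (H3C10, plus).
H2AC8: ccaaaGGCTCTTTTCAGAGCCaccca
H4C5: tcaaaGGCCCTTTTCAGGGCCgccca
H2BC9: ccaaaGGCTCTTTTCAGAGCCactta
H3C6: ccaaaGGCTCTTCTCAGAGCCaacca
H4C8: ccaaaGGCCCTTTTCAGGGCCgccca
H3C10: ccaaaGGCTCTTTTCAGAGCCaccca
The sequence shared by H2AC8, H2BC9 and H3C10 was the most frequent and stood in 9 of the 20 transcripts, and the form in H4C5 and H4C8 stood in 4.

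The 4 promoters below are shown because their genes differ most in where they were expressed: H2AC6 was on in every line, H2AC8 in every line but MDAMB231, H1-5 in HCC1806 and MDAMB468, and H4C6 in HCC1806. The sequences come from RefSeq (GRCh38.p14) and run from 250 bases before to 50 bases after the annotated start, on the gene's own strand. Their positions are chr6:26123922-26124221 (H2AC6, plus strand), chr6:26216671-26216970 (H2AC8, plus), chr6:27867539-27867838 (H1-5, minus) and chr6:26240143-26240442 (H4C6, plus). Capitals mark the TATA box letters TATAAA, the CCAAT box letters CCAAT and the octamer ATTTGCAT, each on either strand and at any position. The only TATA letters in the H2AC8 window lie at -206, on the opposite strand. They are the same bases as the match at -32 of its neighbour H2BC8.
H2AC6: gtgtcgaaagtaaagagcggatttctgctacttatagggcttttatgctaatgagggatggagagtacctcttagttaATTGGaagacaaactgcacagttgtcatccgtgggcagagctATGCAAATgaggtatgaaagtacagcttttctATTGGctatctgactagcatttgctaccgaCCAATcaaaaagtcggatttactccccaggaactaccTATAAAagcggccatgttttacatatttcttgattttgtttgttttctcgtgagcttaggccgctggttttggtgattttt
H2AC8: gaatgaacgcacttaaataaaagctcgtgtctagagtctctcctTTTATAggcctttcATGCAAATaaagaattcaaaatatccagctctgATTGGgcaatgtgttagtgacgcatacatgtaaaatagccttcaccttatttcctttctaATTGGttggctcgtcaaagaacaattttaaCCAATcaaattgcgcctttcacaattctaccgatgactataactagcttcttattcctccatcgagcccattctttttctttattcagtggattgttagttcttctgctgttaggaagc
H1-5: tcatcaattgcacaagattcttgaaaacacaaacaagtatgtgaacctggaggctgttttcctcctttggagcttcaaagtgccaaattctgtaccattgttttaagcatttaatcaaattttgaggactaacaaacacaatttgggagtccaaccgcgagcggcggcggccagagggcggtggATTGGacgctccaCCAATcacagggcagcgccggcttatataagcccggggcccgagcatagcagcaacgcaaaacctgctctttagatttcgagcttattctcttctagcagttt
H4C6: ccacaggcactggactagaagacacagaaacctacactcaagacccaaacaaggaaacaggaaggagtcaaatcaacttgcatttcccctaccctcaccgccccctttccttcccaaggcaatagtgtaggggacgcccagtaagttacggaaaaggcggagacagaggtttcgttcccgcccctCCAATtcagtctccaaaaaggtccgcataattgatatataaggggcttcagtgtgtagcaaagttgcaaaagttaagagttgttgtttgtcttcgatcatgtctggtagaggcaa
Of the 53 genes, 48 had a promoter in the RefSeq table. TATAAA stood in 64.6% of them against 11.5% of all 35116 promoters of that length, CCAAT in 85.4% against 34.6%, and the octamer in 41.7% against 1.77%. Matches far from the start were counted too, so these shares do not give the number of TATA boxes at the usual place. CCAAT was in all 38 promoters of the H1, H2A, H2B and H3 genes and in 3 of the 10 H4 promoters. The octamer was in 8 of 10 H2A and 11 of 14 H2B promoters, in none of the 6 H1 or 10 H4 promoters, and in 1 of the 8 H3 promoters, that of H3C4, whose window in the table is the same as that of H2AC7. Several neighbouring H2A and H2B genes on opposite strands, such as H2AC7 and H2BC7, have overlapping windows. A single site can then count for both genes, so these shares and counts are not of independent promoters. A match describes these letters only and is not evidence that a factor binds there.

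The libraries held 10370645 to 97218217 counts, and the 53 genes together took 0.274% to 0.772% of them. ADAR, the targeted gene, was lower in every shADAR1 library than in every shNT library of its line, at 54.6 to 173 against 276 to 527 CPM (a gene's counts per unit of library size, the size scaled with edgeR's TMM factors). The epithelial marker EPCAM averaged 299.8 and 253 CPM in the HCC1806 and MDAMB468 shNT groups and 0 and 8.95 CPM in BT549 and MDAMB231, where the mesenchymal gene VIM was at 2309 and 4305 CPM. The epithelial gene CDH1 was likewise at most 0.177 CPM in the BT549 and MDAMB231 shNT libraries. The epithelial keratins KRT8 and KRT18 differed from this pattern. They had 441 to 504 and 196 to 252 CPM in MDAMB231 shNT, and at most 0.837 and 0.0154 CPM in BT549 shNT. ESR1, the oestrogen receptor gene, reached 21.1 CPM in HCC1806 shNT. Of the blood and endothelial markers, HBB was 0 in every library, and the others averaged at most 0.594 CPM in every group, apart from PECAM1 at 4.51 and 4.12 CPM in MDAMB231 shNT and shADAR1. The samples are bulk RNA, so fewer cells in S phase and less histone mRNA per cell cannot be told apart.

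The first comparison was between the cell lines. The set of histone genes in use differed from line to line, while the summed levels of the lines overlapped. Summed over all 53 genes, the shNT libraries reached 4109, 4886 and 4050 CPM in MDAMB231, 3940, 4722 and 2729 in BT549, 5743, 3691 and 3586 in HCC1806, and 4747, 3894 and 3440 in MDAMB468. These ranges overlap. Yet 23 of the 53 genes were below 1 CPM in all 6 libraries of MDAMB231, against 10 in BT549, 5 in MDAMB468 and 3 in HCC1806 (both limits of 1 and 5 CPM used here were chosen after the levels were seen). Genes at 5 CPM or more in all 6 libraries numbered 30 in MDAMB231, 39 in BT549, 46 in MDAMB468 and 48 in HCC1806, and 25 genes reached it in all 24 libraries. In MDAMB231 no gene lay between the limits. Of the 23 genes low there, H4C7, H2AC15 and H2AC17 were below 1 CPM in all 24 libraries.

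**Figure D1:**
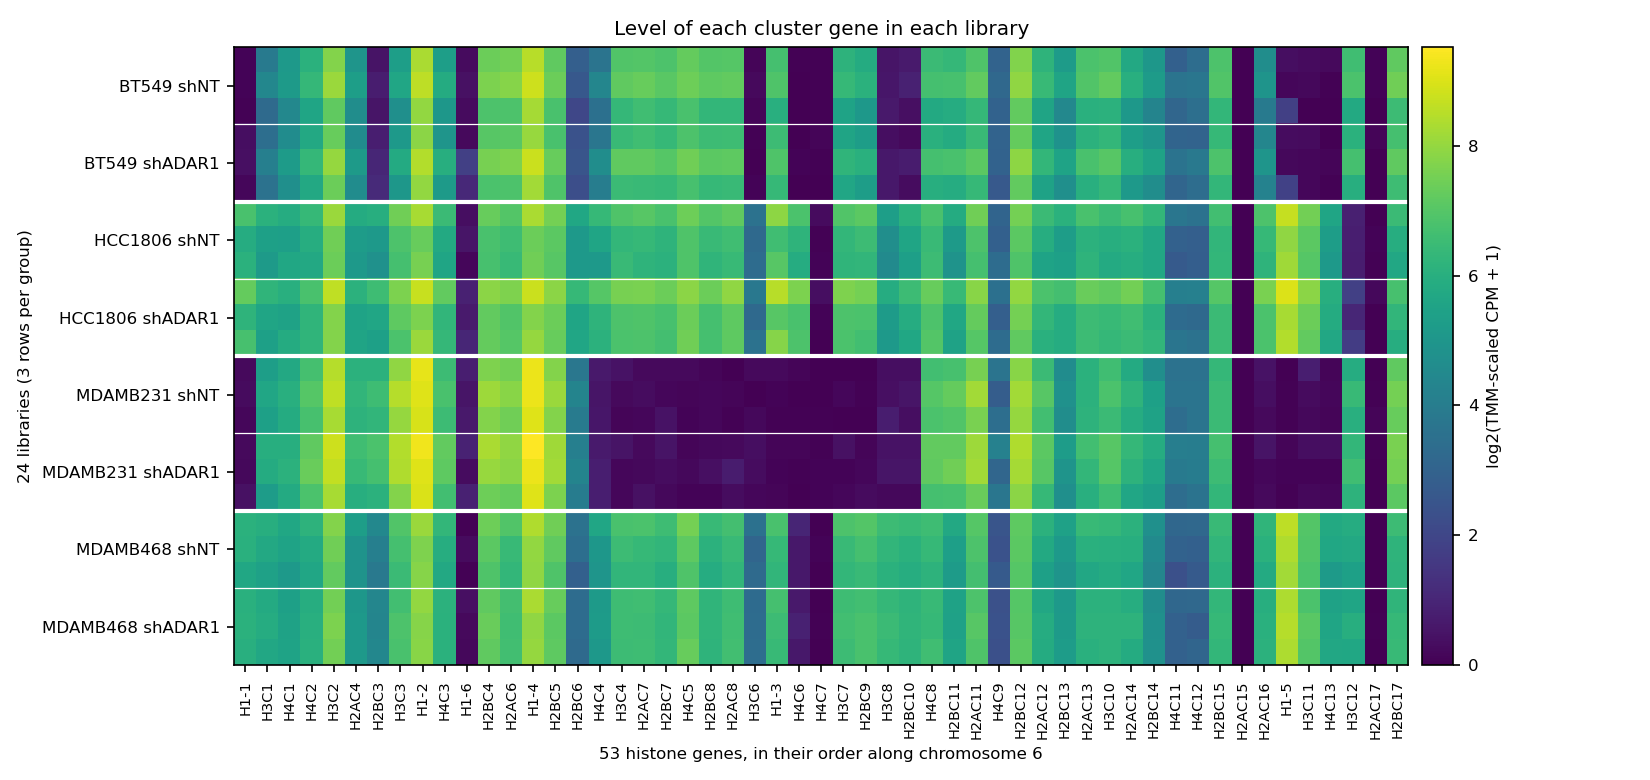
Level of the 53 histone genes (columns, in order along chromosome 6) in the 24 libraries (rows, 3 per group), as log2(TMM-scaled CPM + 1) in colour. In both MDAMB231 groups a run of 15 neighbouring columns from H4C4 to H2BC10 is dark, and the columns on either side are not.

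Most of the genes that were low in MDAMB231 were neighbours, while H1-1, H1-6 and H2AC17 lay apart from the other low genes. From H4C4 to H2BC10, 15 cluster genes in a row over 84.6 kb (chr6:26188765-26273356) stayed below 0.750 CPM in all 6 MDAMB231 libraries, with 0 to 39 counts each. The stretch holds H4C4, H3C4, H2AC7, H2BC7, H4C5, H2BC8, H2AC8, H3C6, H1-3, H4C6, H4C7, H3C7, H2BC9, H3C8 and H2BC10, so genes of all 5 classes. H4C7 was at or below 0.276 CPM in every library of every line, so it does not set MDAMB231 apart. The edges of the stretch were abrupt. The gene before it, H2BC6, had 12.6, 18.4 and 14.6 CPM in the shNT libraries of MDAMB231, and the gene after it, H4C8, had 99.0, 127 and 111 CPM. H4C5, the H4 gene with the highest mean level per kilobase, had 0.185, 0.0890 and 0.0663 CPM in MDAMB231 shNT, which are 2, 4 and 3 counts. In the other shNT libraries it had 152, 170 and 110 CPM in BT549, 169, 119 and 119 in HCC1806 and 182, 142 and 118 in MDAMB468, so MDAMB231 lay apart and the other 3 lines overlapped. H2AC8, the H2A gene with the highest mean level per kilobase, had 0, 4 and 2 counts in MDAMB231 shNT and 76.0 to 151 CPM in the shNT libraries of the other lines. The difference of MDAMB231 from the mean of the other lines in shNT had an adjusted p of 6.76e-17 for H4C5, 1.00e-14 for H2AC8, 2.02e-14 for H2BC9 and 1.80e-13 for H1-3 (edgeR's quasi-likelihood test, Benjamini-Hochberg over 21352 genes). No fold is given for these genes, since it would depend on the prior count. Summed, the 15 genes made up 25.2% of the cluster's CPM in BT549 shNT, 27.3% in HCC1806, 25.9% in MDAMB468 and 0.0579% in MDAMB231. The nearest other protein-coding genes outside the stretch were expressed in MDAMB231, with HFE at 8.94 CPM on the side of H4C4 and BTN3A2 at 24.1 CPM on the side of H2BC10 (shNT means). Only RNA was measured here.

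A second low stretch lay at the other end of the cluster. H2AC16, H1-5, H3C11 and H4C13, 4 neighbours at chr6:27865355-27873510, had at most 0.738 CPM in every MDAMB231 library, and H2AC15 just before them had no count in any of the 24 libraries. H3C12, the next gene, had 58.3, 83.8 and 62.7 CPM in MDAMB231 shNT. BT549 shared most of this stretch: H3C11 and H4C13 were at or below 0.213 CPM there, and H1-5 was at or below 0.266 CPM in replicates 1 and 2 of both arms but at 2.49 and 2.59 CPM in replicate 3. H2AC16, in contrast, had 24.3, 29.2 and 14.3 CPM in BT549 shNT; it overlaps the listed interval of H2BC15 on the same strand. In HCC1806 and MDAMB468 all 4 genes were on. H1-5 had 406, 247 and 283 CPM in HCC1806 shNT and 382, 330 and 293 CPM in MDAMB468 shNT, and H3C11 had 178, 138 and 128 CPM and 124, 122 and 113 CPM. Of all tested cluster genes, H3C11 had the smallest p for a difference among the 4 shNT groups (F = 497, adjusted p = 1.72e-18 by edgeR), followed by H4C6, H4C13, H1-1 and H3C8.

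HCC1806 and MDAMB468 shared genes that were low in both BT549 and MDAMB231, most of them inside these stretches. H1-1, H3C6, H3C8, H2BC10, H3C11 and H4C13 were at 5 CPM or more in all 12 libraries of the first pair of lines and below 1 CPM in all 12 of the second, and of these H1-1 alone lies outside the stretches. These are the lines with high EPCAM and the lines with high VIM, respectively, although KRT8 and KRT18 were high in MDAMB231 as well. H1-1, the first gene of the cluster, had 110, 57.7 and 66.1 CPM in HCC1806 shNT and 65.9, 64.3 and 50.4 CPM in MDAMB468 shNT. In BT549 shNT it had 0.0710, 0.0616 and 0.0465 CPM, which are 4, 4 and 2 counts, and in MDAMB231 shNT 0.185, 0.223 and 0.111 CPM. The 2 pairs of lines did not overlap. A further 11 genes, 10 of them in the long stretch, were low in MDAMB231 and at 5 CPM or more in all 18 other libraries.

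HCC1806 and BT549 each had genes whose level set them apart from the other lines. H4C6 had 113, 71.4 and 57.7 CPM in HCC1806 shNT and at most 0.985 CPM in every library of the other lines (adjusted p = 6.16e-19 for HCC1806 against the mean of the others, edgeR). H3C12 went the other way, with 0.792, 0.749 and 0.714 CPM in HCC1806 shNT and at least 41.8 CPM in every shNT library elsewhere (adjusted p = 4.31e-14, edgeR). H3C12 overlaps H2AC17, and 40.9% of the 50-base stretches of its annotated transcript occur in another histone gene's transcript, so its counts are less certain. H2BC3 had 0.426, 0.709 and 0.465 CPM in BT549 shNT, against 13.5 to 93.0 CPM in the other shNT libraries (adjusted p = 7.04e-13, edgeR). H2BC6 was also lower in BT549, at 6.37, 5.21 and 3.02 CPM, than in HCC1806, at 50.3, 33.3 and 34.8 CPM. H1-6, which encodes the testis H1, stayed at or below 2.47 CPM in every library.

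Per kilobase of listed length, the leading gene of the H1, H2A and H4 classes differed between lines, and that of H2B and H3 did not. In MDAMB231 nearly all H1 mRNA came from H1-4 and H1-2: per kilobase of listed length they made up 51.5% and 48.4% of H1 in shNT. In BT549 the same genes made up 46.7% and 41.2%, with H1-3 at 11.9%. HCC1806 and MDAMB468 spread H1 over 5 genes, led by H1-5 at 30.9% and 32.8%. H1-4 had 608, 602 and 533 CPM in MDAMB231 shNT, 358, 444 and 298 in BT549, 319, 165 and 175 in HCC1806 and 335, 253 and 247 in MDAMB468, so every MDAMB231 library was above all others. H1 summed to 1183, 1135 and 1024 CPM in MDAMB231 shNT and 1382, 725 and 842 CPM in HCC1806 shNT, which overlap.

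**Figure D2:**
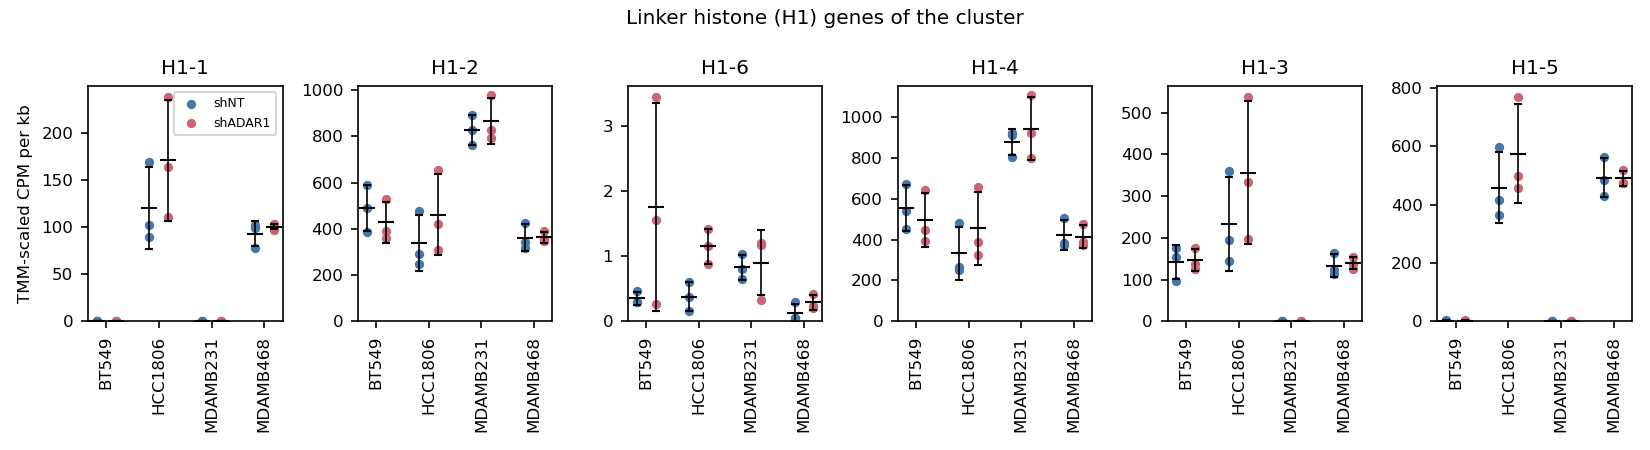
TMM-scaled CPM per kilobase of listed length for the 6 H1 genes of the cluster in the 4 lines. Points are libraries, bars show the mean and SD of 3. H1-1 and H1-5 are near 0 in BT549 and MDAMB231, H1-3 is near 0 in MDAMB231, and H1-2 and H1-4 are highest in MDAMB231.

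Among the H4 genes, H4C5 led per kilobase in BT549 (41.3% of the class in shNT), HCC1806 and MDAMB468 (33.5%). In MDAMB231 H4C8 led (27.7%), followed by H4C2 (25.1%) and H4C3 (21.9%). H3C2, the H3 gene with the highest mean level, led its class in all 4 lines, from 25.2% in MDAMB468 to 46.7% in MDAMB231. It had 350, 384 and 305 CPM in MDAMB231 shNT, above every other shNT library, the highest of which was BT549 replicate 2 at 269 CPM. Per kilobase H2BC12 led the H2B genes in all 4 lines, from 17.7% in HCC1806 to 30.8% in MDAMB231. However, 74.1% of the 50-base stretches of its transcript occur in another histone gene. For H2A the leader per kilobase was H2AC7 in BT549 and MDAMB468, H2AC8 in HCC1806 and H2AC12 in MDAMB231. These rankings depend on listed length, which is 387 nt for H2AC12 and 2250 nt for H2AC11. By mean shNT CPM alone, H2AC6 led H2A in BT549 (171). H2AC11 led it in HCC1806 (131), MDAMB231 (223) and MDAMB468 (115). H2BC5 was above H2BC12 by CPM in HCC1806 (151 against 146) and MDAMB468 (146 against 135). In MDAMB231 H4C2 and H4C8 were about equal by CPM (112.5 and 112.3). The 25 genes on in all 24 libraries held 95.7% of the cluster's CPM in MDAMB231 shNT, 71.3% in BT549, 56.3% in MDAMB468 and 55.1% in HCC1806. Of these 25 genes, 22 had a higher mean in MDAMB231 shNT than the average of the other lines, with a median log2 difference of 0.71, against 10 in BT549, 9 in HCC1806 and 2 in MDAMB468.

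Divergent H2A and H2B gene pairs share a short promoter region, and of the 8 such pairs measured, 2 were low on both sides in MDAMB231. H2BC8 and H2AC8, 282 bases apart, averaged 0.112 and 0.0444 CPM in MDAMB231 shNT and 70.3 to 119 CPM in the other shNT groups. H2AC7 and H2BC7, 315 bases apart, averaged 0.180 and 0.231 CPM in MDAMB231 and 76.7 to 126 CPM elsewhere. The exception was H2AC17 and H2BC17, 313 bases apart: H2BC17 averaged 66.1 to 163 CPM and H2AC17 at most 0.0443 CPM. H2AC17 shares 86.3% of its 50-base stretches with other histone transcripts and overlaps H3C12 on the same strand, and how reads that fit more than 1 gene were counted is not given in the sources used here. H2AC15, which had no counts, likewise lies inside the listed interval of H2BC15, on the opposite strand.

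Across the 50 cluster genes that passed the filter on low counts, 44 differed among the 4 shNT groups, against 85.9% of all genes tested, a share near that of the cluster genes. H4C7, H2AC15 and H2AC17 did not pass the filter. In MDAMB231 against the mean of the other lines 20 genes were higher, against 30.2% of all genes, and 20 lower, against 25.8%. In HCC1806 24 were higher (all genes 35.8%) and 7 lower (25.3%). In MDAMB468 20 were higher (32.7%) and 12 lower (29.3%), and in BT549 15 were higher (31.5%) and 14 lower (28%). A line at almost no counts pulls the mean of the others down on the log scale, so the 4 largest rises in BT549, H2AC8, H2BC8, H4C5 and H2AC7, were all genes of the MDAMB231 stretch. The largest rises in MDAMB231 were H2BC3 (log2 difference 3.47, SE 0.22), H3C12 (2.20, SE 0.20), H3C3 (1.81, SE 0.19) and H2BC11 (1.28, SE 0.22). The first 2 also include a line near 0: H2BC3 averaged 0.533 CPM in BT549 shNT and H3C12 0.752 CPM in HCC1806 shNT. H3C12 was lower in MDAMB231 shNT (68.3 CPM) than in BT549 shNT (86.9 CPM). In HCC1806 the largest falls after H3C12 were modest, at -0.93 for H2BC11, -0.87 for H2BC17 and -0.83 for H1-4, and in MDAMB468 they were -0.83 for H2BC14, -0.80 for H2BC11, -0.75 for H4C9 and -0.66 for H2AC6. Of 15 replication-dependent histone genes tested outside the cluster, 14 were higher in BT549 and none lower, 3 were higher and 11 lower in HCC1806, 4 higher and 2 lower in MDAMB231, and 3 higher and 10 lower in MDAMB468. Outside genes H2AC25 and H2BC26, named after their values were seen, were low in MDAMB231 like the long stretch, averaging 0.197 and 0.0369 CPM in its shNT group. In the other shNT groups H2AC25 averaged 15.5 to 48.5 CPM and H2BC26 24.6 to 56.8 CPM.

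The second comparison, which the study was designed around, was shADAR1 against shNT. Without pairing the replicates no cluster gene passed the threshold of 0.05 on adjusted p in any line with edgeR. The background, the share of all 21352 genes that passed, was also small: 2.01% in MDAMB231, 0.473% in BT549, 0.0468% in HCC1806 and 0.0375% in MDAMB468. It was 2.96% in the average of the 4 lines and 0.0234% in the test of a difference between lines, where no cluster gene passed either. At an unadjusted p under 0.05, 26 of the 50 genes passed in HCC1806, against 4.35% of all genes. The counts were 3 in BT549 (6.42%), 1 in MDAMB231 (11.7%), 0 in MDAMB468 (3.76%), 7 in the average (12.8%) and 3 in the difference (4.44%). DESeq2 called H1-1 in BT549 (background 1.31%), H3C12 in HCC1806 (0.187%), H2AC8 in MDAMB231 (3.68%) and none in MDAMB468 (0.197%). In the average it called H2AC8, H1-1 and H2BC3 (4.89%), and in the difference H2AC8 (0.576%).

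In HCC1806 the cluster was higher after ADAR1 knockdown in every pair of same-numbered libraries. Summed over the 53 genes, the shADAR1 libraries had 8121, 4876 and 4973 CPM against 5743, 3691 and 3586 CPM in shNT, a ratio of 1.41, 1.32 and 1.39. The arms overlap, because replicate 1 was high in both. Of the 50 tested genes, 49 were higher in shADAR1 in all 3 pairs, against 19.4% of all genes tested. The other lines showed no such agreement. The ratios were 0.737, 0.954 and 1.05 in BT549, 1.35, 1.05 and 0.942 in MDAMB231, and 0.864, 1.07 and 1.19 in MDAMB468.

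**Figure D3:**
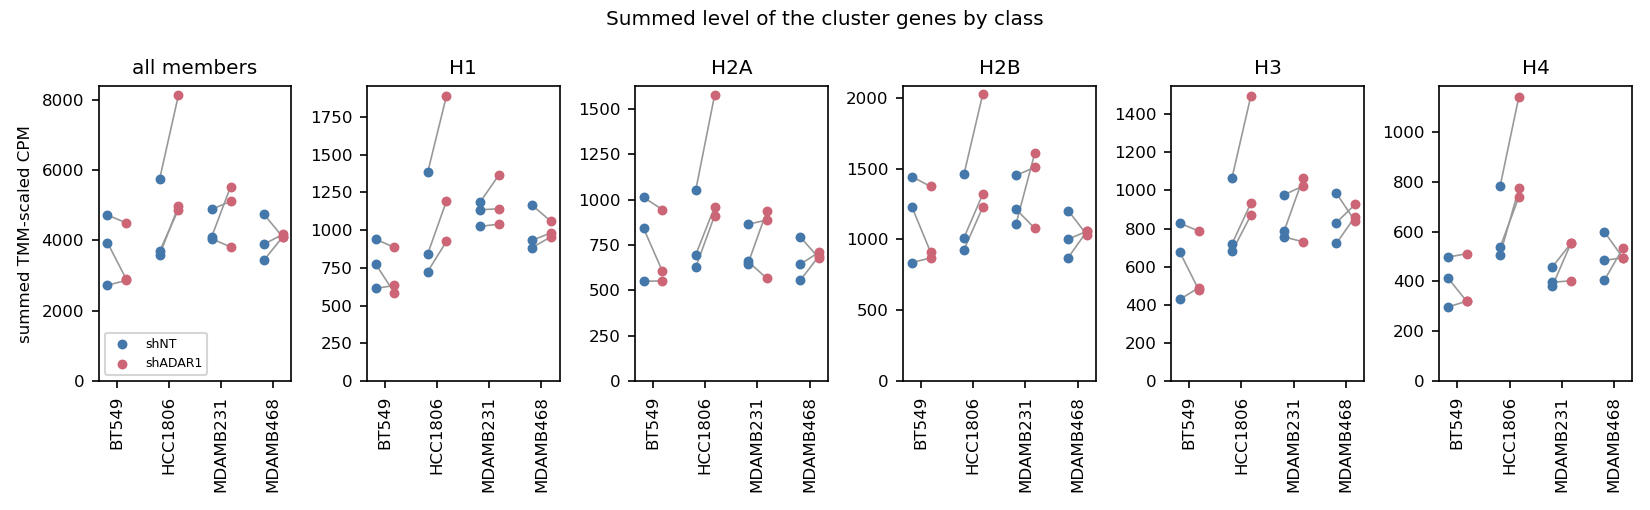
Summed TMM-scaled CPM of all 53 genes and of each class in every library. Grey lines join same-numbered shNT (blue) and shADAR1 (red) libraries of a line. All 3 HCC1806 lines rise in every panel, and the other cell lines have lines in both directions for all members.

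With the replicate number as a block, 33 of the 50 genes rose in HCC1806 and none fell, against 1.47% of all genes that rose and 0.632% that fell. All 5 classes took part: 5 of 6 H1, 5 of 9 H2A, 8 of 14 H2B, 6 of 10 H3 and 9 of 11 H4 genes tested. The called rises ran from 1.25-fold to 2.47-fold, and the median of the 50 genes was 1.41-fold. H4C6, the gene used in HCC1806 only, rose from 113, 71.4 and 57.7 to 197, 110 and 114 CPM (log2 change 0.81, SE 0.09, adjusted p = 2.82e-05 by edgeR with the block). H2AC8 rose from 146, 95.5 and 85.0 to 242, 141 and 140 CPM (0.67, SE 0.08, adjusted p = 0.000141). H4C5 rose from 169, 119 and 119 to 233, 167 and 172 CPM (0.49, SE 0.10, adjusted p = 0.00758). Among the H1 genes, H1-4 rose from 319, 165 and 175 to 434, 213 and 255 CPM (0.45, SE 0.07, adjusted p = 0.00123). H3C2 rose from 267, 175 and 164 to 384, 217 and 215 CPM (0.41, SE 0.10, adjusted p = 0.0238), and H2BC12 from 181, 140 and 118 to 248, 183 and 145 CPM (0.38, SE 0.09, adjusted p = 0.036). In each of these 6 genes the 2 arms overlapped, and each of the 3 pairs moved up. H3C12 had the largest called change, from 0.792, 0.749 and 0.714 to 2.46, 1.03 and 2.26 CPM, and its arms did not overlap (1.30, SE 0.26, adjusted p = 0.00879). The result depends on the pairs in number but not in direction: without pair 1, 2 or 3 the blocked fit called 9, 23 and 15 genes, all higher.

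**Figure D4:**
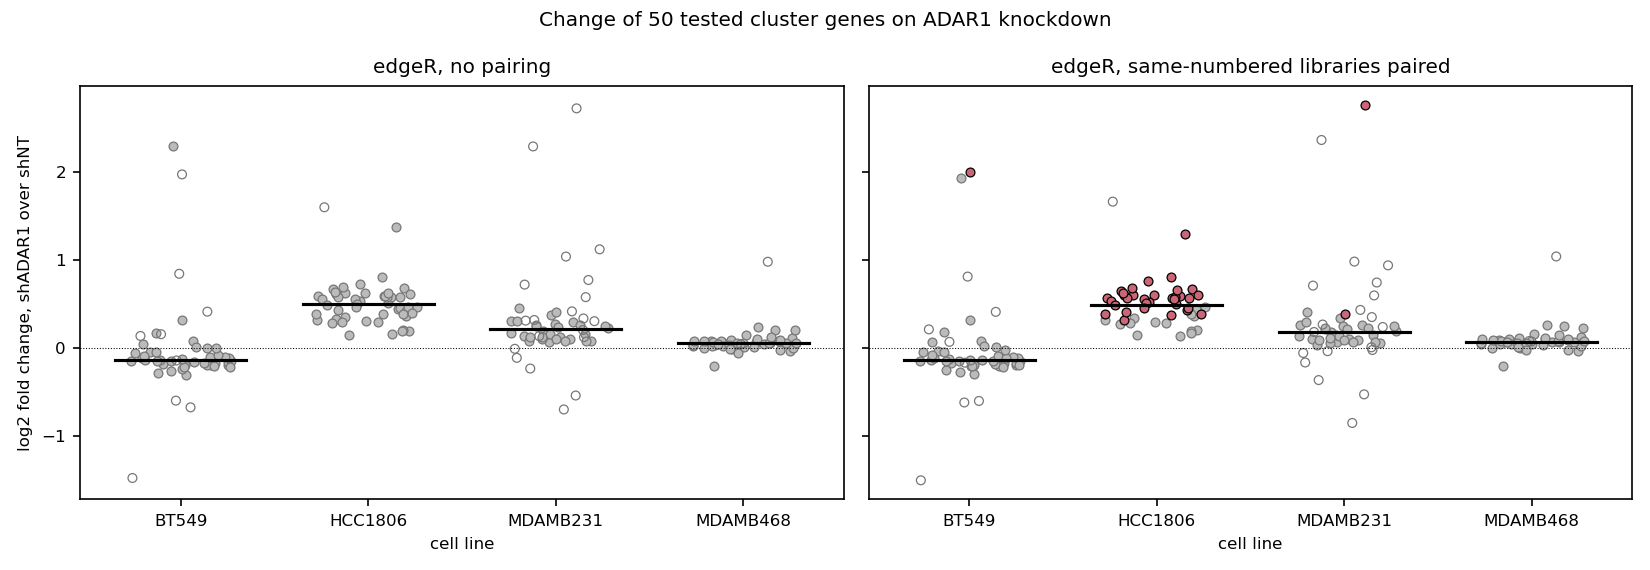
Log2 fold change, shADAR1 over shNT, of the 50 tested genes in each line, without (left) and with (right) pairing of same-numbered libraries. Filled red points passed an adjusted p of 0.05, open points are genes averaging below 1 CPM in both arms of that line, and bars are medians: in HCC1806 the medians are 0.50 and 0.49 and 33 points are red on the right.

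The other lines moved less. With the block, 1 gene rose in BT549 (background 2.48%) and none fell (2.66%), 2 rose in MDAMB231 (5.09%) and none fell (6.33%), and none rose (1.01%) or fell (0.651%) in MDAMB468. The median log2 change of the cluster without the block was -0.14 in BT549, 0.21 in MDAMB231 and 0.05 in MDAMB468, and 0.50 in HCC1806, where the median of all genes was between 0.00 and 0.01 in each line. The BT549 gene was H1-1, with 4, 4 and 2 counts in shNT and 16, 28 and 8 in shADAR1. These are levels of at most 0.309 CPM, far under the 57.7 to 110 CPM of HCC1806 shNT. The MDAMB231 genes were H2AC8, with 0, 4 and 2 counts against 4, 33 and 11, and H4C3, an H4 gene outside the low stretch, at 0.38 on the log2 scale (SE 0.10, adjusted p = 0.0196 by edgeR with the block). Averaged over the lines, 12 genes rose with the block (7.25%) and none fell (5.96%), among them H2AC8, H2BC3, H4C3, H3C12 and H1-1. Without the block the smallest adjusted p in the average were those of H1-6, at 0.0731 for a log2 change of 1.25 (SE 0.37), and H2AC8, at 0.0765 for 0.85 (SE 0.25) (edgeR). H1-6 is at or below 2.47 CPM throughout, and H2AC8 has only a few counts in MDAMB231. The leading genes of the other classes had smaller values there, H1-4 at 0.09 (SE 0.12), H2BC12 at 0.09 (SE 0.10), H3C2 at 0.13 (SE 0.12) and H4C5 at 0.17 (SE 0.23). The effect itself differed between lines for 19 of the 50 genes with the block, against 4.69% of all genes. H2AC8 (F = 20.8, adjusted p = 0.00072), H2AC7, H1-2, H1-4 and H2BC7 had the smallest p.

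Listed gene length and shared sequence were looked at beside the HCC1806 change. The 44 tested genes under 1000 nt had a median log2 change of 0.50 and the 6 longer ones 0.46, without the block. Of the 53 genes, 29 shared no 50-base stretch with another histone gene and 7 shared more than 20% of theirs. The rises called with the block include H4C11 and H4C12, and every 50-base stretch of H4C12 occurs in another histone transcript. The values of these genes may therefore not be independent, since how reads that fit several genes were counted is not given.

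Other genes of the histone system were read from gene lists in HCC1806 with the block, where 1.47% of all genes rose and 0.632% fell. Lists with no gene called are near that background and are given as counts, most with a median log2 change. Of 15 replication-dependent genes outside the cluster, 6 rose and none fell, and all 15 were above 0, with a median log2 change of 0.45. Among replacement variants, which are mostly made outside S phase from mRNAs with poly(A) tails, H1-10 (0.57, SE 0.07, adjusted p = 5.53e-05 by edgeR with the block), H2AX (0.27, SE 0.06, adjusted p = 0.0208) and H2AJ (0.34, SE 0.08, adjusted p = 0.0324) rose. Of 24 genes that transcribe, process or degrade histone mRNA, NPAT and SLBP among them, none passed in either direction, with a median of -0.03, and the same held for 19 histone chaperones, with a median of 0.03. Of 27 S-phase genes only E2F1 rose (0.25, SE 0.07, adjusted p = 0.0481), with a median of 0.08, and none of 18 G2 and M phase genes passed, with a median of 0.10. None of the 15 tested non-histone protein-coding genes of the same interval passed. Summed S-phase CPM in HCC1806 was 2648, 2312 and 2443 in shNT and 2842, 2434 and 2547 in shADAR1, higher in each pair. VIM also rose in HCC1806 (0.68, SE 0.09, adjusted p = 0.000257 by edgeR with the block), the only one of 11 line markers to do so, from a mean of 7.96 CPM in shNT. The part of either in the histone result was not tested.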

How the data were processed

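RNA from 24 libraries (8 groups of 3 biological replicates) was sequenced, and each library's file lists 37416 genes. Per the file headers the authors deposited raw read counts, CPM and RPKM per gene. Per the submitters' processing notes the tools were bcl2fastq, STAR, Subread featureCounts and edgeR; the genome build, annotation, strand setting and handling of reads that fit several genes are not given in the sources used here. Of the 53 cluster genes, 44 have the coordinates of GENCODE 29. Recomputed CPM and RPKM matched the deposited ones. Replicates differed by more than sampling noise. The p-values compare a difference with the spread between these samples, and with the replicate block only with the spread left after differences between replicate numbers are taken out. Deposited counts were fitted with edgeR 4.0.16 (R 4.3.3): filterByExpr, TMM factors, 1 coefficient per group, glmQLFTest, Benjamini-Hochberg over 21352 genes, threshold 0.05. The fit without a replicate block was run on simulated data with the same changes in every line, and only the average of the lines was checked. The fit with the block was not run on simulated data. Levels are CPM on the TMM-scaled library size. Alternatives were upper-quartile or RLE size factors, other filters, DESeq2 1.42.0, fits of only the libraries compared, without structural RNA genes or single libraries, and a replicate block.

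The replicate numbers were taken to pair the arms. Over 13405 genes with a mean log2 CPM above 0, deviations from the group mean of same-numbered shADAR1 and shNT libraries correlated at 0.179 to 0.739, each higher than with the other numbers. Over all 21352 genes they correlated at 0.0794 to 0.338, with BT549 pair 1 and MDAMB468 pair 3 under 0.1. The labels do not say what a number shares.

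Members and gene lists were chosen with earlier results of these data known. Named were the gene with the highest mean CPM per kilobase in each class, the genes past the threshold or the 4 largest rises and falls with mean log2 CPM of at least 0, the 5 smallest p of the joint tests, H1-1, H1-6, and leading genes of other lists; 1 result on another gene is not reported here. Members with only a few counts have little precision. Promoters and motifs were read from RefSeq and stem-loops from GENCODE with Python 3.11.15.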

Additional observations from a re-analysis of the deposited data

Results flagged for a closer look

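The knockdown effect differed between the 4 lines for 19 of the 50 tested histone genes when same-numbered libraries were paired (edgeR, joint test of the line effects, adjusted p under 0.05), which is what brought it here. Without the pairing edgeR called 0 of them, 3 at an unadjusted p under 0.05, and DESeq2 called 1. The median log2 change of the 50 genes, without the pairing, was 0.50 in HCC1806, 0.21 in MDAMB231, 0.05 in MDAMB468 and -0.14 in BT549.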

How the results depend on the processing

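The knockdown counts depended on pairing. With the replicate block the histone genes called numbered 1 in BT549, 33 in HCC1806, 2 in MDAMB231, 12 in the average and 19 in the difference between lines, against 0 in each without it, and 0 in MDAMB468 both ways; the counts of genes that differ between lines moved by less than 1.5 times. With the block, leaving out HCC1806 pair 1, 2 or 3, an alternative added after seeing the data, gave 9, 23 and 15. DESeq2 called 1, 1 and 1 in BT549, HCC1806 and MDAMB231, 3 in the average and 1 in the difference. Testing without a filter on low counts gave 3 in the average.

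Requiring 10 counts in every library removed the genes that are low in a line and left 30 to test. Then 25 differed between lines in shNT instead of 44, and 11, 13, 22 and 13 differed in BT549, HCC1806, MDAMB231 and MDAMB468 against the others, instead of 29, 31, 40 and 32.

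Leaving out 1 library at a time moved the knockdown counts from 0 to 1 in BT549 (1 without shADAR1 replicate 1) and from 0 to 3 in the average (3 without HCC1806 shNT replicate 1), and left 0 in HCC1806, MDAMB231, MDAMB468 and the difference. The counts of line differences ranged from 42 to 46 jointly, 25 to 32 for BT549, 28 to 33 for HCC1806, 37 to 43 for MDAMB231 and 24 to 36 for MDAMB468. The summed log2 ratio, 0.46 in HCC1806, ranged from 0.18 without shADAR1 replicate 1 to 0.72 without shNT replicate 1, and from -0.40 to 0.04 in BT549, 0.04 to 0.29 in MDAMB231 and -0.07 to 0.17 in MDAMB468. H2AC6 in MDAMB468 missed the threshold without shNT replicate 2 or 3. The cause was not tested. Genes with only a few counts in a line cannot be ranked there.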

Other observations

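Outside the histone genes, PRSS16, a serine protease gene inside the same interval, had the line pattern of H1-1 (chosen after its values were seen): it averaged 19.6 and 36.6 CPM in HCC1806 and MDAMB468 shNT and 0.739 and 1.44 CPM in BT549 and MDAMB231 shNT.

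The promoters of genes low in at least 1 line held TATAAA in 10 of 22, and those of genes on in all 24 libraries in 18 of 22. CCAAT stood in 19 of 22 promoters in both sets, and the octamer in 9 of 22 in both. These are counts of letters at any position in a fixed window, with no test. Neighbouring genes with overlapping windows can share a site.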
